A study of Rattus norvegicus with 9 samples.

Results

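The genes described here encode the proteasome and its assembly factors, as far as the array names them. A gene was taken where a probe set is annotated to exactly 1 symbol that begins with Psma, Psmb, Psmc, Psmd, Psme, Psmf or Psmg and a number, and the brightest such probe set over all arrays stood for the gene. The rule uses names and mean brightness, and no difference between groups. It found 46 genes on 60 probe sets, of 14217 named genes on the array. All 46 genes passed the filter on dim probe sets, as did 11287 of the 14217, and 56 of the 60 probe sets did. The name rule also takes Psmc3ip, a protein of meiotic recombination, and Psme3ip1, which binds the nuclear activator Psme3, and neither is a proteasome subunit. Without them 44 genes are left. Another 6 probe sets carry a proteasome name beside other symbols and were left out, so Psmb6, the caspase-like catalytic subunit, and Psme3 have no value here.

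The proteasome is the main protease of the cytosol and the nucleus. Its 20S core is a barrel of stacked rings. The outer alpha rings (Psma genes) form the gate, and the inner beta rings (Psmb genes) hold the cutting sites. Interferon and immune cells can replace the standard catalytic subunits by Psmb8, Psmb9 and Psmb10, which gives the immunoproteasome. The 19S cap binds ubiquitin-tagged proteins, unfolds them with a ring of ATPases (Psmc genes) and feeds them into the core, with the help of non-ATPase subunits (Psmd genes) that bind, trim or recycle ubiquitin. Dedicated chaperones build the core (Psmg genes) and the cap (Psmd5, Psmd9 and Psmd10) and are not part of the finished particle. When proteasome capacity falls short, the transcription factor Nfe2l1 is known to raise the subunit genes together. Chromaffin cells of the adrenal medulla make and release catecholamines and secretory proteins, and immobilization is a strong stimulus of that release.

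Both adrenal medullae of adult rats of 280 to 320 g were dissected, and total RNA was run on 9 Affymetrix arrays, 3 per group. Control rats were not stressed, 1XIMO rats were immobilized once for 2 h, and 6XIMO rats were immobilized for 2 h daily on 6 days, with tissue taken after the last session. No strain, sex or transgene is given, and some label fields name mouse or brain where the organism is given as Rattus norvegicus. The labels do not say that each array holds a separate animal, so a p-value reflects how far these 9 samples scatter, which may be technical. Levels are log2(intensity + 16), with 16 added so that dim values do not dominate, and a fold change is a difference of mean levels on that scale. Adjusted p is that of limma with Benjamini-Hochberg adjustment over all 11287 genes, and a gene passed at an adjusted p under 0.05. Levels are not compared between genes, since probe sets differ in brightness.

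The 6XIMO arrays stood apart in their quality controls, and this goes with the group. The actin 3′/5′ ratio, which rises as the labelled RNA gets shorter, was 231 in 6XIMO replicate 1, 6.11 in replicate 2 and 8.87 in replicate 3, against 1.45 to 2.15 in the other 6 arrays. 6XIMO replicate 1 was the lowest of the 9 arrays for 20 of the 46 genes and the highest for 8. In this array 13 of the genes lay more than 1 below the mean of 6XIMO replicates 2 and 3, and Psmb2 lay 4.86 below it. Quality and 6 sessions cannot be told apart in any comparison with 6XIMO, and leaving out replicate 1 does not separate them, since replicates 2 and 3 also exceed the other arrays. The tissue label was met by medulla markers (Th, Dbh, Pnmt, Chga, Chgb, Slc18a1 and Slc18a2), of which 7 of 7 were above the filter, but 8 of 8 measured markers of the adrenal cortex were above it too. The summed intensity of the medulla markers ran from 266443 to 413403 in Control, 253299 to 523427 in 1XIMO and 969727 to 2352430 in 6XIMO. The cortex markers summed to 340158 to 498933, 294870 to 710124 and 1000110 to 1654860. The 11 leukocyte markers, of which 1 lay below the filter, summed to 103004 to 121052, 99644 to 120674 and 82024 to 132314. The sums hide lower levels of single leukocyte markers. Of the 10 tested, 2 fell and 0 rose after 6 sessions as deposited, Csf1r (-1.67) and Aif1 (-0.84), with a median log2 fold change of -0.51. Under quantile normalization without 6XIMO replicate 1, 3 fell and 0 rose, with a median of -0.37. Over all genes 14.9% and 18.2% fell in these settings. The rise of medulla and cortex markers after 6 sessions depended on the scaling: as log2 fold changes the median was 2.14 for the medulla markers and 1.40 for the cortex markers as deposited, and 0.26 and -0.04 under quantile normalization without 6XIMO replicate 1. As deposited 5 of 7 medulla and 5 of 8 cortex markers rose. Slc18a1 (-1.12), Cyp11b1 (-1.15) and Nr5a1 (-0.01) lay below Control without passing. These values rest on 6XIMO replicate 1, without which they were 0.04, 0.30 and 0.37 and did not pass either. Whether these shifts have a part in the proteasome values was not tested. Fewer cells of a type and less RNA per cell cannot be told apart in bulk tissue.

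**Figure D1:**
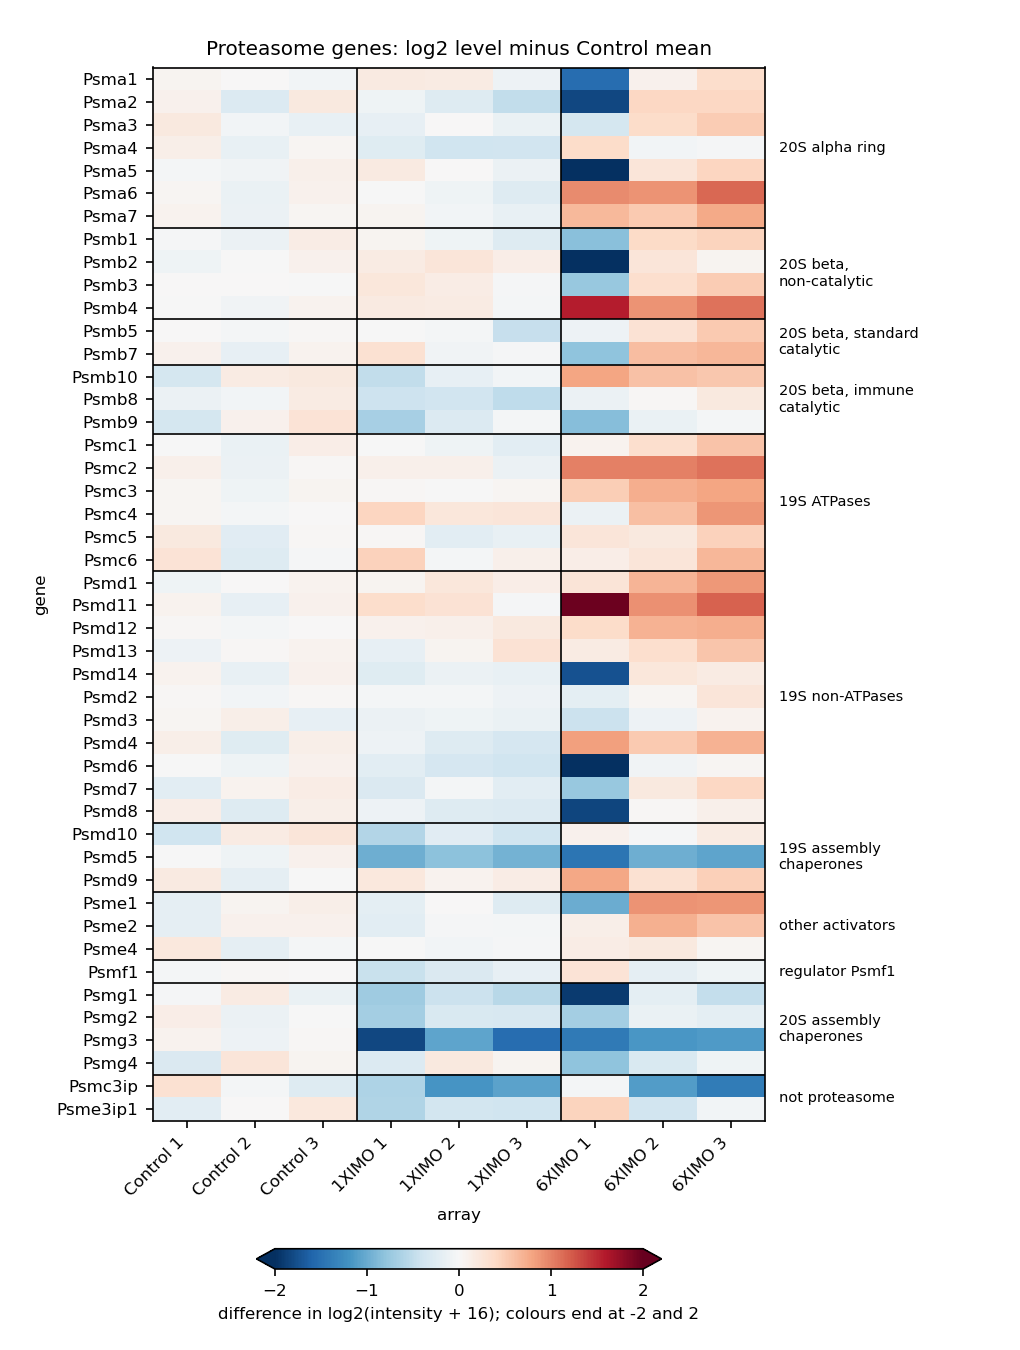
Heat map of the 46 genes (rows, grouped by role) in the 9 arrays (columns), coloured by log2(intensity + 16) minus the gene's Control mean, with colours ending at -2 and 2. Psmd5 and Psmg3 are below Control in all 6 stressed arrays, the 9 genes that rose, such as Psmc2, are above it in all 3 arrays of 6XIMO, and the lowest cell is that of Psmb2 in 6XIMO replicate 1.

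The first comparison asks what a single session does. Against Control, 2 of the 46 genes fell in 1XIMO and 0 rose. Both encode assembly chaperones. Psmg3, which helps to build the alpha ring, fell by 1.47 on the log2 scale, and Psmd5, which holds ATPases of the cap during its assembly, fell by 0.92. Of all genes tested 5.31% fell and 4.2% rose, so the count of genes that fell was near that background. The median log2 fold change of the 46 genes was -0.10, beside -0.13 over all genes tested. It was -0.09 without Psmc3ip and Psme3ip1, with the same 2 and 0 calls. The count of 2 became 8 without 6XIMO replicate 1 (background 20.2% down and 9.77% up), which enters through the shared estimate of the spread. It became 1 (2.17%) without any 1 of Control replicates 2 and 3 and 1XIMO replicates 1, 2 and 3, where 1.05% to 2.34% of all genes fell. Under quantile normalization it was 2 (background 3.07% down, 4.08% up), of which Psmd5 was called as deposited and Psmb8 was not. With 6XIMO replicate 1 left out as well it was 12 (18.9% down, 11.2% up). With each array centred on its median it was 0 (0.594% down, 1.4% up). No gene of the 46 rose in 1XIMO under these 5 settings. At an unadjusted p under 0.05, the values as deposited held 0 genes above Control and 4 below. The share of all genes at this looser cutoff was not counted, so these counts cannot be set against a background.

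After 6 sessions 9 of the 46 genes were above Control and 2 were below. The 9 that rose are all structural subunits of the core or the cap. They are Psmd11 (1.35), Psmb4 (1.19), Psmc2 (1.03), Psma6 (1.00), Psmd4 (0.68), Psmc3 (0.67), Psma7 (0.64), Psmd1 (0.60) and Psmd12 (0.60), all as log2 fold changes. The 2 that fell are the same 2 chaperones as after 1 session, Psmg3 (-1.24) and Psmd5 (-1.16), and both comparisons share the Control arrays. In all, 19.6% of the genes rose, against 9.36% of all genes tested, and 4.35% fell, against 14.9%. Bright genes make up most of this group. Of the 46 genes 38 lie in the brightest 25% of genes, where 18.7% of 2822 genes rose, and all 9 that rose are among these 38. The median log2 fold change was 0.08 for the 46 genes, beside -0.23 over all genes and 0.04 over the brightest 25%.

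The count after 6 sessions moved with single arrays and with the scaling. It was 19 up and 3 down without 6XIMO replicate 1 (background 17.9% up and 30.3% down; 42.7% of the brightest 25% up). It was 4 up (8.7%) without Control replicate 2 or 3 or 6XIMO replicate 3, where 5.96%, 5.36% and 7.63% of all genes rose. The excess over all genes was thus small without 6XIMO replicate 3. It was 5 up (10.9%) without Control replicate 1, against 6.21% of all genes. Without any other array it was 6 to 8 up (13% to 17.4%), against 7.6% to 8.83%. Quantile normalization left 5 up and 1 down (9.2% and 8.39%), with 4 of the 9 among them, Psmc3, Psmd1, Psmd11 and Psmd12. In the brightest 25% of genes 13% rose under it, as did 4 of the 38 genes there. Quantile normalization without 6XIMO replicate 1 gave 10 up and 7 down (16.8% and 18.2%). In the brightest 25% of genes 21.5% then rose, as did 7 of the 38 genes there. The 10 held 6 of the 9, Psmc2, Psmc3, Psmd1, Psmd4, Psmd11 and Psmd12. Those 6 belong to the cap, and Psma6 (0.14), Psma7 (0.09) and Psmb4 (0.13) of the core did not pass there. Counted by complex, that setting had 8 of 17 cap subunits and 1 of 16 core subunits up, and 2 of each down. Quantile normalization of all arrays had 4 of 17 and 0 of 16 up. The values as deposited had 6 of 17 and 3 of 16 up, or 9 of 17 and 8 of 16 without 6XIMO replicate 1. How far the cap led the core thus depended on the scaling. The difference between these counts was not tested. Median centring left 1 up, Psmd11, and 0 down (4.09% and 2.01%). The median of the 46 genes was 0.08 as deposited, -0.04 under quantile normalization, 0.26 with median centring and -0.01 under quantile normalization without 6XIMO replicate 1, while that of all genes was -0.23, -0.15, -0.06 and -0.03. The sign of the median of the 46 genes thus changed with the scaling. On the values as deposited it was 0.36 without 6XIMO replicate 1 and 0.02 without replicate 3.

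**Figure D2:**
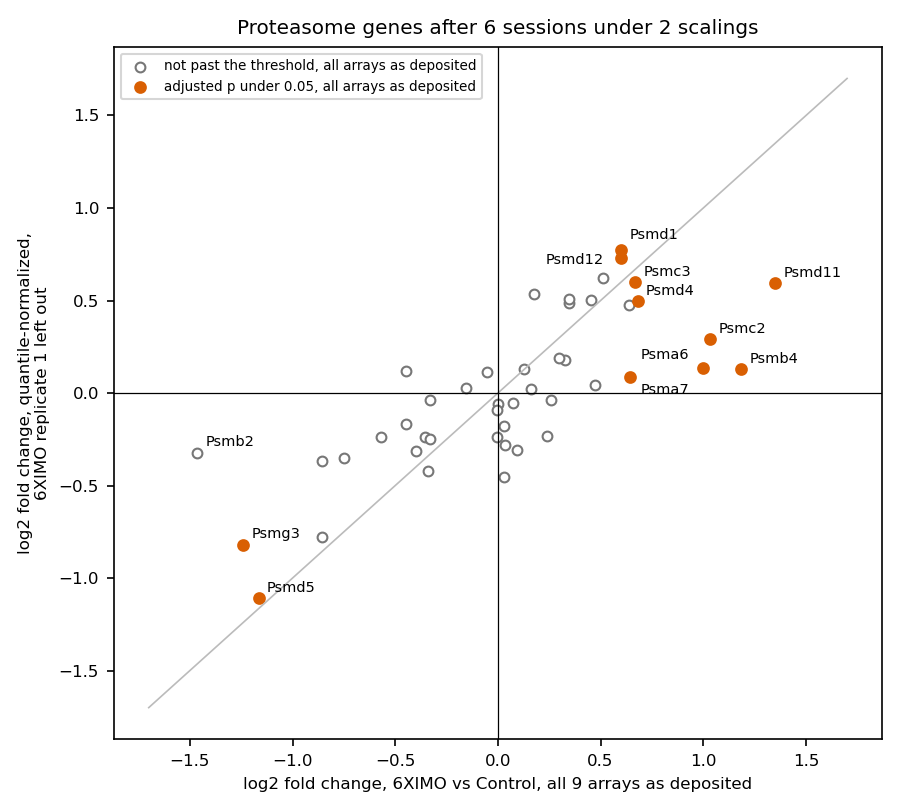
Log2 fold change of each of the 46 genes, 6XIMO against Control, with all 9 arrays as deposited (x axis) and after quantile normalization without 6XIMO replicate 1 (y axis), with filled points past an adjusted p of 0.05 as deposited. Psmd1 (0.60 and 0.77) and Psmd12 (0.60 and 0.73) lie near the line of equality, while Psma6 (1.00 and 0.14) and Psmb4 (1.19 and 0.13) lie far below it.

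The direct comparison of 6XIMO with 1XIMO is the test of whether the response to 6 sessions differs from that to 1. Here 8 of the 46 genes were higher in 6XIMO and 0 were lower, against 5.21% and 4.63% of all genes. The 8 are Psmd11, Psma6, Psmb4, Psmc2, Psmd4, Psmb10, Psma7 and Psmc3. Psmb10, an immune catalytic subunit, is the 1 of them that did not pass against Control. Neither Psmd5 nor Psmg3 passed, so a difference between the 2 stress schedules was not shown for the genes that fell. In the brightest 25% of genes 10.2% were higher in 6XIMO, and all 8 are among the 38 genes there. The median was 0.25, beside -0.08 over all genes, and 0.41 without 6XIMO replicate 1. The count was 0 without 1XIMO replicate 2 or 3, where 5 and 0 of all 11287 genes were higher. It was 3 (6.52%) without Control replicate 2 or 3, 1XIMO replicate 1 or 6XIMO replicate 3, against 2.61%, 2.38%, 1.55% and 2.84% of all genes. It was 5 (10.9%) without Control replicate 1 or 6XIMO replicate 2, against 3.43% and 4%. It was 22 without 6XIMO replicate 1 (background 15.3% up and 17% down, 35.1% up in the brightest 25%). It was 4 under quantile normalization (3.42% and 2.12%), 10 under quantile normalization without 6XIMO replicate 1 (12.5% and 9.72%) and 0 with median centring (0.354% and 0.177%). In the brightest 25% of genes 4.61% and 14.4% were higher under the 2 quantile settings, as were 4 and 9 of the 38 genes there. No gene was lower in 6XIMO than in 1XIMO under any of these scalings. At an unadjusted p under 0.05, 14 genes were higher and 0 lower as deposited. The share of all genes at that cutoff was not counted, so the 14 cannot be set against a background.

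**Figure D3:**
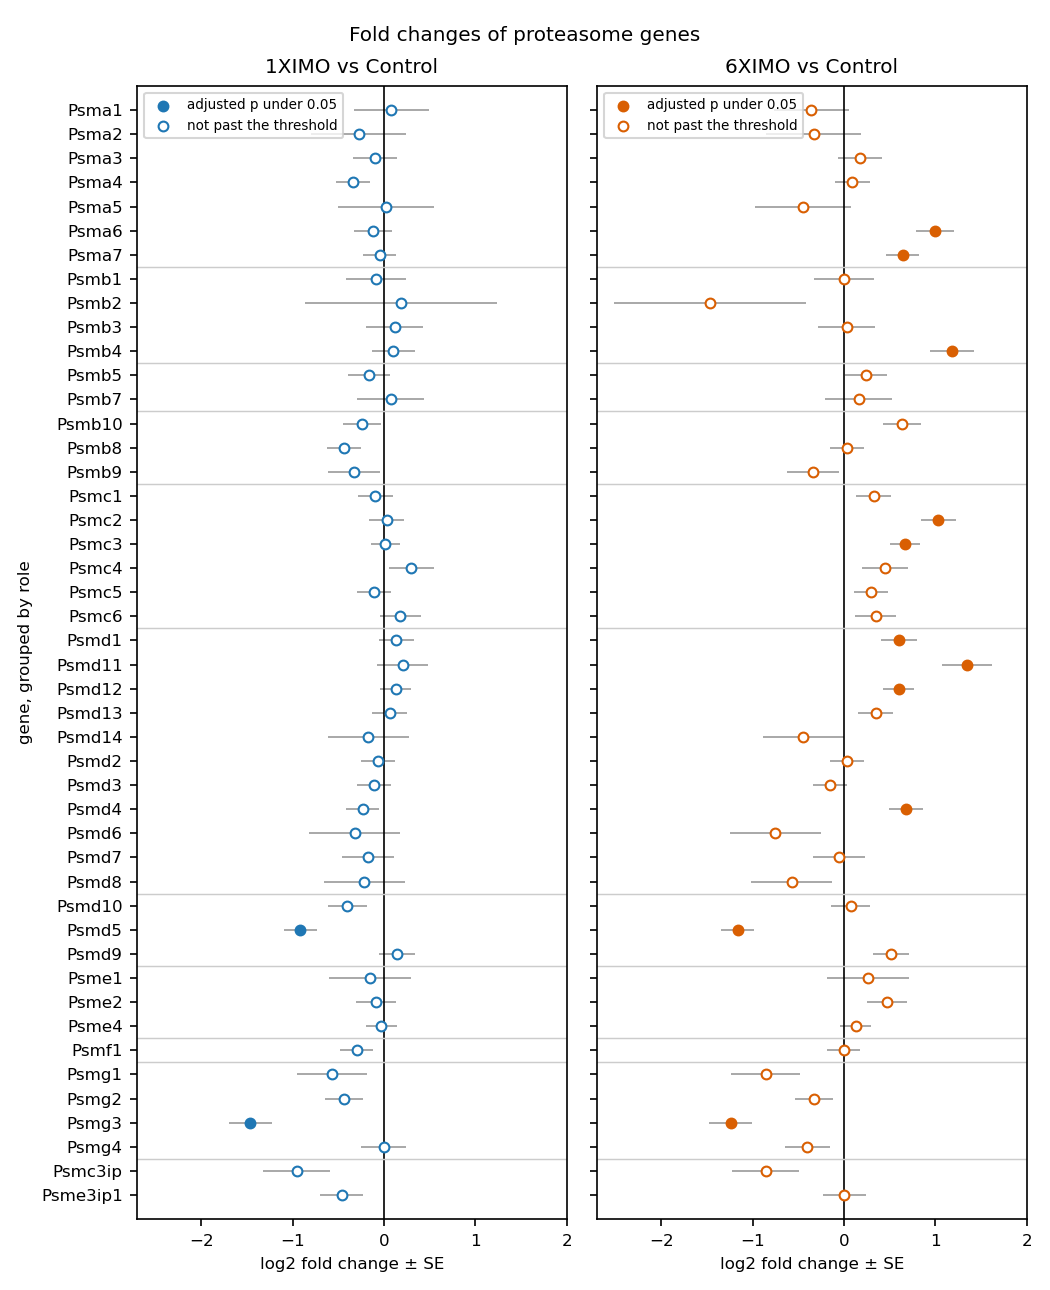
Log2 fold change with its standard error for each of the 46 genes, grouped by role, in 1XIMO against Control (left) and 6XIMO against Control (right), with filled points past an adjusted p of 0.05. Psmg3 and Psmd5 are filled on the left of 0 in both panels, the 9 genes from Psmd1 (0.60) to Psmd11 (1.35) are filled on the right of 0 in the 6XIMO panel, and Psmb2 has the widest error there (-1.47 ± 1.05).

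The assembly chaperones hold the genes that fell, and both were lower in every stressed array. Psmg3 had log2 levels of 12.01, 11.84 and 11.95 in Control, 10.11, 10.87 and 10.42 in 1XIMO and 10.51, 10.77 and 10.80 in 6XIMO. All 6 stressed arrays lay below all 3 Control arrays, and the 1XIMO and 6XIMO arrays overlapped. The fold change was -1.47 ± 0.24 (SE, adjusted p = 0.00468) after 1 session and -1.24 ± 0.24 (SE, adjusted p = 0.00574) after 6. Under quantile normalization Psmg3 was about as low, -1.36 (adjusted p = 0.0876) after 1 session and -1.26 (adjusted p = 0.0637) after 6, and did not pass, and with 6XIMO replicate 1 left out in addition it passed in both comparisons (-1.43 and -0.82). No single left-out array ended either call.

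Psmd5 had log2 levels of 13.61, 13.53 and 13.70 in Control, 12.64, 12.79 and 12.66 in 1XIMO and 12.15, 12.63 and 12.56 in 6XIMO. Again no stressed array reached the Control range, and 6XIMO lay wholly below 1XIMO by a small margin. The fold change was -0.92 ± 0.18 (SE, adjusted p = 0.014) after 1 session and -1.16 ± 0.18 (SE, adjusted p = 0.00252) after 6, and between 6XIMO and 1XIMO it was -0.25 ± 0.18 (SE, adjusted p = 0.407). Psmd5 passed under quantile normalization with and without 6XIMO replicate 1, at -1.02 and -1.02 after 1 session and at -1.18 and -1.11 after 6. The call after 1 session was lost without Control replicate 2 or 3 or without any 1 of the 1XIMO arrays, with values between -0.96 and -0.87, and the call after 6 sessions was kept without any 1 of the 9 arrays. With median centring neither gene passed in either comparison, at fold changes of -0.79 and -0.99 for Psmd5 and -1.34 and -1.07 for Psmg3, close to those as deposited.

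The partners of these chaperones did not pass, though several lay low. Psmg1, which pairs with Psmg2 to seed the alpha ring, had log2 levels of 13.10, 13.29 and 12.99 in Control, 12.42, 12.69 and 12.57 in 1XIMO and 11.22, 12.94 and 12.65 in 6XIMO. Psmg2 had log2 levels of 12.48, 12.21 and 12.32 in Control, 11.66, 12.03 and 12.01 in 1XIMO and 11.67, 12.21 and 12.15 in 6XIMO. In both genes the stressed arrays lay below all Control arrays, by a hair for Psmg2 in 6XIMO replicate 2, and neither passed (Psmg1 -0.57 ± 0.38 SE, adjusted p = 0.47 and -0.86 ± 0.38 SE, adjusted p = 0.129, Psmg2 -0.44 ± 0.21 SE, adjusted p = 0.26 and -0.33 ± 0.21 SE, adjusted p = 0.282). Without 6XIMO replicate 1 both passed after 1 session (Psmg1 adjusted p = 0.0103, Psmg2 0.0403). Psmg4, the partner of Psmg3, differed by -0.00 ± 0.24 (SE, adjusted p = 0.999) after 1 session and by -0.40 ± 0.24 (SE, adjusted p = 0.261) after 6. Of the 4 core chaperones 1 fell and 0 rose in each comparison with Control, and the median was -0.50 after 1 session and -0.63 after 6, or -0.26 after 6 without 6XIMO replicate 1.

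Of the 3 cap chaperones, 1 fell and 0 rose in each comparison with Control. Psmd9 had log2 levels of 11.66, 11.30 and 11.47 in Control, 11.69, 11.54 and 11.63 in 1XIMO and 12.24, 11.78 and 11.95 in 6XIMO. Its 6XIMO arrays lay above all Control arrays, with a fold change of 0.51 ± 0.19 (SE, adjusted p = 0.0823) that did not pass. Psmd10, also known as gankyrin, had log2 levels of 12.87, 13.45 and 13.51 in Control, 12.70, 13.05 and 12.88 in 1XIMO and 13.36, 13.26 and 13.44 in 6XIMO. It was lowest in 1XIMO, where it overlapped Control (-0.40 ± 0.21 SE, adjusted p = 0.317), and near Control in 6XIMO (0.07 ± 0.21 SE, adjusted p = 0.828). The 3 cap chaperones thus had fold changes from -1.16 to 0.51 after 6 sessions.

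In the alpha ring of the core, 2 of 7 genes rose after 6 sessions and 0 of 7 changed after 1. Psma6 had log2 levels of 14.99, 14.81 and 15.03 in Control, 14.94, 14.85 and 14.68 in 1XIMO and 15.89, 15.85 and 16.09 in 6XIMO. The 3 arrays of 6XIMO lay above the other 6 and close together, and 6XIMO replicate 1 did not stand apart. The fold change was 1.00 ± 0.21 (SE, adjusted p = 0.00839) against Control and 1.12 ± 0.21 (SE, adjusted p = 0.015) against 1XIMO. Psma7 had log2 levels of 14.30, 14.12 and 14.26 in Control, 14.28, 14.17 and 14.08 in 1XIMO and 14.87, 14.75 and 14.99 in 6XIMO, with a fold change of 0.64 ± 0.18 (SE, adjusted p = 0.0298) after 6 sessions. It also separated from the other 6 arrays, at a smaller distance.

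The fold changes of Psma6 and Psma7 shrank under quantile normalization and not under median centring, where they were 1.17 (adjusted p = 0.151) and 0.81 (adjusted p = 0.318) and did not pass. Psma6 was 0.21 (adjusted p = 0.238) above Control under quantile normalization and 0.14 (adjusted p = 0.277) above it with 6XIMO replicate 1 left out in addition. Psma7 showed a log2 fold change of 0.22 and 0.09 there, neither past the threshold, and its call was also lost without any 1 of the 3 Control arrays, 1XIMO replicates 2 and 3 and 6XIMO replicate 3 (0.58 to 0.68). Psma4 had log2 levels of 13.93, 13.67 and 13.86 in Control, 13.58, 13.42 and 13.45 in 1XIMO and 14.18, 13.77 and 13.79 in 6XIMO. It was lower in all 1XIMO arrays than in Control (-0.34 ± 0.19 SE, adjusted p = 0.347) and not past the threshold, and back in the Control range in 6XIMO replicates 2 and 3. Psma1, Psma2 and Psma5 had 6XIMO fold changes of -0.36, -0.33 and -0.45, and without 6XIMO replicate 1 they were 0.23, 0.41 and 0.33. None of the 3 passed with or without that array. Psma3 showed a log2 fold change of 0.18 and, without it, at 0.44 (adjusted p = 0.0322).

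Among the beta subunits without a cutting site, 1 of 4 rose after 6 sessions and 0 of 4 changed after 1. Psmb4 had log2 levels of 14.87, 14.81 and 14.94 in Control, 15.05, 15.05 and 14.84 in 1XIMO and 16.45, 15.77 and 15.96 in 6XIMO. It was highest in 6XIMO replicate 1, and the remaining 6XIMO arrays also lay above all others, at 1.19 ± 0.24 (SE, adjusted p = 0.00733). Under quantile normalization it showed a log2 fold change of 0.31 and, without 6XIMO replicate 1, at 0.13, and it passed in neither. Psmb2 had log2 levels of 14.19, 14.27 and 14.36 in Control, 14.44, 14.52 and 14.41 in 1XIMO and 9.57, 14.52 and 14.33 in 6XIMO. Its 6XIMO fold change of -1.47 ± 1.05 (SE, adjusted p = 0.341) is the lowest of the 46, with 6XIMO replicate 1 far below all other arrays, and without that array it was 0.15. Psmb3 had log2 levels of 14.51, 14.51 and 14.49 in Control, 14.73, 14.65 and 14.48 in 1XIMO and 13.74, 14.84 and 15.01 in 6XIMO and showed the same low first 6XIMO array (0.03 ± 0.31 SE, adjusted p = 0.957). Psmb1 showed a log2 fold change of -0.00 ± 0.33 (SE, adjusted p = 0.996) after 6 sessions as deposited and at 0.42 (adjusted p = 0.035) without that array. Under quantile normalization with or without that array 0 of these 4 subunits rose after 6 sessions, with medians of -0.40 and -0.21. Without it Psmb2 fell there.

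None of the 5 catalytic beta subunits passed against Control with all arrays as deposited. Of the standard ones, Psmb5, the chymotrypsin-like site and the main target of proteasome inhibitors, had log2 levels of 14.65, 14.62 and 14.68 in Control, 14.65, 14.62 and 14.19 in 1XIMO and 14.55, 14.94 and 15.18 in 6XIMO. Psmb7, the trypsin-like site, had log2 levels of 14.49, 14.24 and 14.48 in Control, 14.72, 14.34 and 14.38 in 1XIMO and 13.61, 15.02 and 15.07 in 6XIMO. Both were above Control in 6XIMO replicates 2 and 3 and below it in replicate 1, at 0.24 ± 0.23 (SE, adjusted p = 0.488) and 0.16 ± 0.36 (SE, adjusted p = 0.781). Without replicate 1, Psmb7 passed at 0.64 (adjusted p = 0.00649) and Psmb5, at 0.41 (adjusted p = 0.0593), did not. This rise was not seen under quantile normalization with or without replicate 1, where 0 of the 2 passed and their medians were -0.24 and -0.10.

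Of the 3 immune catalytic subunits, 0 changed against Control and 1 differed between the stress schedules with all arrays as deposited. Psmb8 had log2 levels of 14.44, 14.50 and 14.72 in Control, 14.13, 14.18 and 14.04 in 1XIMO and 14.43, 14.58 and 14.74 in 6XIMO. It lay below Control in all 1XIMO arrays without passing (-0.44 ± 0.19 SE, adjusted p = 0.202) and close to the Control range in 6XIMO. Psmb9 had log2 levels of 13.60, 14.05 and 14.23 in Control, 13.29, 13.69 and 13.92 in 1XIMO and 13.11, 13.83 and 13.92 in 6XIMO, with overlap between all groups (-0.33 ± 0.28 SE, adjusted p = 0.621 and -0.34 ± 0.28 SE, adjusted p = 0.415). Each 1XIMO array lay below the Control array of the same number, and with the number as a block the adjusted p after 1 session was 0.294. Psmb10 had log2 levels of 12.57, 13.08 and 13.12 in Control, 12.43, 12.75 and 12.86 in 1XIMO and 13.71, 13.51 and 13.46 in 6XIMO. Its 6XIMO arrays lay above all others, at 0.64 ± 0.21 (SE, adjusted p = 0.0533) against Control, which just missed the threshold, and at 0.88 ± 0.21 (SE, adjusted p = 0.0321) against 1XIMO, which passed. Scaled by quantiles, Psmb8 fell after 1 session (-0.71, adjusted p = 0.018). With 6XIMO replicate 1 left out in addition, Psmb8 also fell after 6 sessions (-0.46, adjusted p = 0.0136), where it was at 0.03 as deposited. Psmb10 rose against Control as deposited without that array. Its call between the schedules was lost under quantile normalization and kept when that array was left out as well.

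To see whether the immune form moved against its standard counterpart, the difference of their log2 levels was taken within each array. Psmb8 minus Psmb5 was -0.21, -0.12 and 0.04 in Control, -0.52, -0.44 and -0.15 in 1XIMO and -0.12, -0.36 and -0.44 in 6XIMO. The mean difference from Control was -0.27 after 1 session (two-sided exact permutation p = 0.2, n = 3 per group) and -0.21 after 6 (exact permutation p = 0.3). The other pair, Psmb10 minus Psmb7, was at -1.93, -1.16 and -1.37 in Control, -2.28, -1.59 and -1.52 in 1XIMO and 0.10, -1.51 and -1.61 in 6XIMO. The shift was -0.31 after 1 session (exact permutation p = 0.4) and 0.48 after 6 (exact permutation p = 0.7), the latter resting on 6XIMO replicate 1, without which it was -0.08. In both differences each 1XIMO array lay below the Control array of the same number. The permutation test ignored these numbers, and a paired test was not run. No shift between standard and immune sites was shown by the unpaired test, and 3 against 3 arrays cannot give a p below 0.1. Psmb9 has no counterpart here, since Psmb6 lies on a probe set with 2 symbols.

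Of the 6 ATPases of the cap, 2 rose after 6 sessions and 0 after 1. All 6 fold changes after 6 sessions were above 0, from 0.30 to 1.03 with a median of 0.40. Psmc2 had log2 levels of 14.70, 14.49 and 14.63 in Control, 14.72, 14.71 and 14.49 in 1XIMO and 15.61, 15.62 and 15.69 in 6XIMO. The 6XIMO arrays were close together and well above all others, at 1.03 ± 0.19 (SE, adjusted p = 0.00545). Psmc3 had log2 levels of 13.08, 12.96 and 13.09 in Control, 13.07, 13.03 and 13.08 in 1XIMO and 13.54, 13.76 and 13.83 in 6XIMO, with no overlap between 6XIMO and the other arrays and a fold change of 0.67 ± 0.16 (SE, adjusted p = 0.0167). Psmc3 ran from 0.60 to 0.84 over all settings, and its call was lost with median centring and without Control replicate 2 or 3 or 6XIMO replicate 3. Psmc2 showed a log2 fold change of 0.39 (adjusted p = 0.057) under quantile normalization and at 0.29 (adjusted p = 0.0323) with 6XIMO replicate 1 left out.

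The other ATPases did not pass. Psmc4 had log2 levels of 13.31, 13.23 and 13.28 in Control, 13.70, 13.51 and 13.51 in 1XIMO and 13.15, 13.87 and 14.15 in 6XIMO. It is the highest fold change of the 46 after 1 session, at 0.30 ± 0.25 (SE, adjusted p = 0.601), with all 1XIMO arrays above Control, and after 6 sessions it was 0.45 ± 0.25 (SE, adjusted p = 0.214), or 0.74 (adjusted p = 0.00142) without 6XIMO replicate 1. Psmc6 had log2 levels of 12.70, 12.18 and 12.40 in Control, 12.89, 12.39 and 12.53 in 1XIMO and 12.56, 12.66 and 13.09 in 6XIMO, with overlap between the groups (0.35 ± 0.23 SE, adjusted p = 0.297). Psmc1 and Psmc5 showed log2 fold changes of 0.32 and 0.30 after 6 sessions. After 1 session 0 of 6 ATPases changed, with a median of 0.02.

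Of the 11 non-ATPase subunits of the cap, 4 rose after 6 sessions and 0 after 1. Psmd11, a lid subunit that holds the cap to the core, had log2 levels of 13.78, 13.54 and 13.79 in Control, 14.05, 13.98 and 13.68 in 1XIMO and 15.66, 14.62 and 14.88 in 6XIMO. It has the largest fold change of the 46, 1.35 ± 0.28 (SE, adjusted p = 0.00776), and 6XIMO replicate 1 is the highest of its arrays. Without that array it was 1.04, and it passed under all 3 other scalings and without any single array. Psmd4, a receptor for ubiquitin chains, had log2 levels of 13.11, 12.74 and 13.11 in Control, 12.88, 12.73 and 12.65 in 1XIMO and 13.81, 13.51 and 13.69 in 6XIMO. Its 6XIMO arrays lay above all others, at 0.68 ± 0.18 (SE, adjusted p = 0.0248) against Control and 0.91 ± 0.18 (SE, adjusted p = 0.0185) against 1XIMO. The call against Control was lost under quantile normalization (0.70 (adjusted p = 0.0602)) and without any 1 of the Control arrays or 6XIMO replicate 3 (0.56 to 0.74).

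Psmd12, another lid subunit, had log2 levels of 12.43, 12.36 and 12.41 in Control, 12.48, 12.50 and 12.60 in 1XIMO and 12.76, 13.10 and 13.13 in 6XIMO, with 6XIMO above both other groups (0.60 ± 0.17 SE, adjusted p = 0.0298). Psmd1, the scaffold that carries ubiquitin-handling proteins, had log2 levels of 12.34, 12.44 and 12.50 in Control, 12.48, 12.65 and 12.56 in 1XIMO and 12.68, 13.10 and 13.30 in 6XIMO (0.60 ± 0.19 SE, adjusted p = 0.0486). In both genes 6XIMO replicate 1 was the lowest of the 3. Without it they showed log2 fold changes of 0.72 and 0.77, and under quantile normalization they passed at 0.73 and 0.72. As deposited their calls were fragile, since that of Psmd1 was lost without any 1 of the other 8 arrays and that of Psmd12 without any 1 of 7 (all but 1XIMO replicate 1 and 6XIMO replicate 1).

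The rest of the cap did not pass after 6 sessions. Psmd2, the scaffold that binds shuttle proteins, showed a log2 fold change of 0.03, Psmd3 at -0.15, Psmd7 at -0.05 and Psmd13 at 0.35. Psmd14, the deubiquitinase that removes ubiquitin chains before degradation, showed a log2 fold change of -0.45, with Psmd6 at -0.75 and Psmd8 at -0.57. In these last 3 genes 6XIMO replicate 1 lay more than 1 below the mean of the other 6XIMO arrays, and without it the values were 0.20, -0.01 and 0.06. Over all 11 the median was 0.03 as deposited and 0.30 without that array.

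No alternative activator passed. Psme1 and Psme2 form the ring that opens the core without ubiquitin, and Psme4 is a large single-chain activator. Psme2 had log2 levels of 14.19, 14.45 and 14.45 in Control, 14.15, 14.35 and 14.33 in 1XIMO and 14.49, 15.08 and 14.93 in 6XIMO, with 6XIMO above all Control arrays (0.47 ± 0.22 SE, adjusted p = 0.143). Psme1 had log2 levels of 14.94, 15.17 and 15.24 in Control, 14.92, 15.13 and 14.86 in 1XIMO and 14.12, 16.01 and 16.001 in 6XIMO, high in 6XIMO replicates 2 and 3 and low in replicate 1. Without that array both passed, Psme1 at 0.89 and Psme2 at 0.64, but under quantile normalization without it they showed log2 fold changes of -0.04 and 0.04. Psme4 had log2 levels of 12.95, 12.56 and 12.71 in Control, 12.73, 12.69 and 12.72 in 1XIMO and 12.89, 12.93 and 12.78 in 6XIMO, with overlap between the groups (0.13 ± 0.17 SE, adjusted p = 0.614).

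Psmf1, a protein that blocks the core in a test tube, had log2 levels of 12.67, 12.73 and 12.72 in Control, 12.26, 12.42 and 12.55 in 1XIMO and 12.97, 12.52 and 12.62 in 6XIMO. It lay below Control in the 1XIMO arrays (-0.30 ± 0.18 SE, adjusted p = 0.414) and did not pass. Of the 2 genes that only share the name, Psmc3ip had log2 levels of 11.47, 11.12 and 10.90 in Control, 10.55, 9.99 and 10.09 in 1XIMO and 11.12, 10.04 and 9.76 in 6XIMO and Psme3ip1 log2 levels of 12.03, 12.25 and 12.46 in Control, 11.64, 11.87 and 11.85 in 1XIMO and 12.69, 11.87 and 12.19 in 6XIMO. Both were low in 1XIMO and neither passed as deposited (-0.96 and -0.46 after 1 session).

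**Figure D4:**
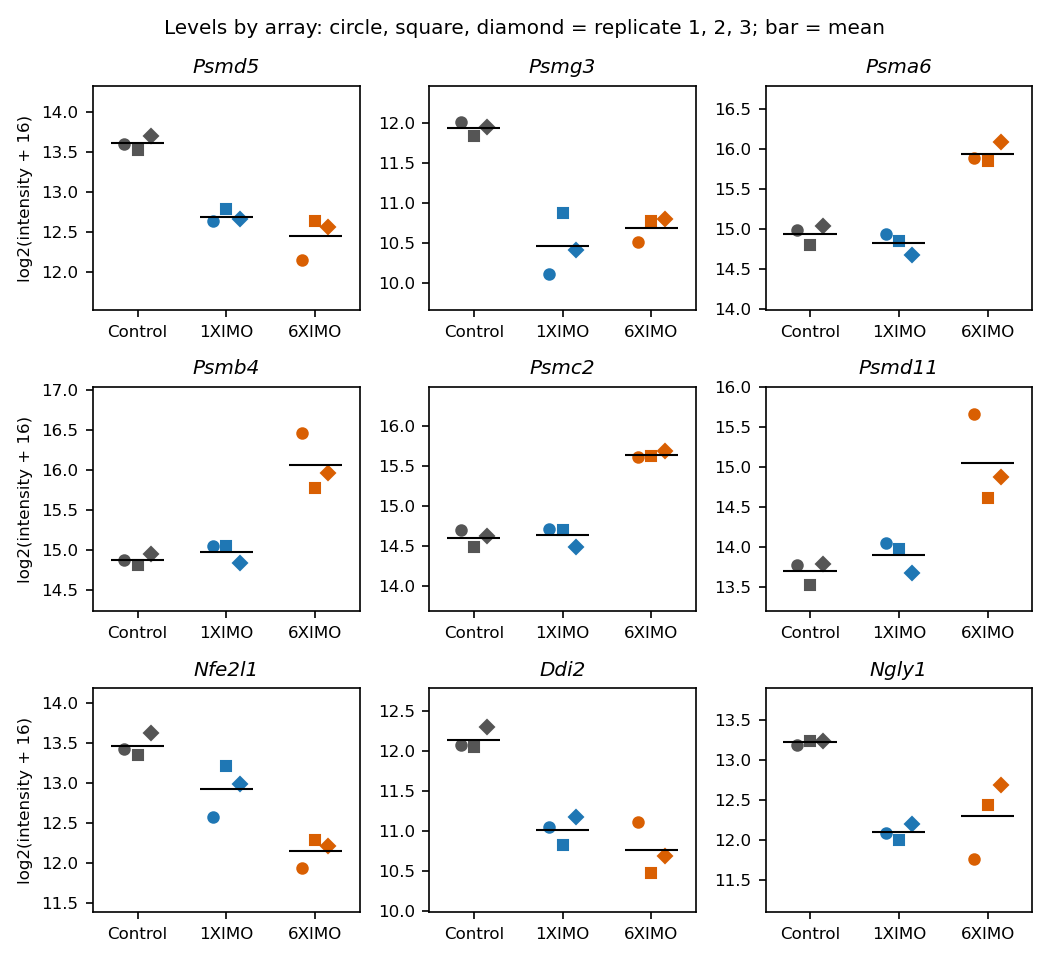
Level, as log2(intensity + 16), in each of the 9 arrays for 6 of the genes and for Nfe2l1, Ddi2 and Ngly1, with symbols for replicates 1, 2 and 3 and a bar at the group mean. All panels span 2.8 units. Psmc2 in 6XIMO lies at 15.61 to 15.69, above Control at 14.49 to 14.70, and Psmd5 falls from 13.61 in Control to 12.70 in 1XIMO.

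Where a gene has several probe sets, they did not always move together. Of the 46 genes, 9 have more than 1 probe set and 7 have more than 1 past the filter. Tested 1 by 1 over all such probe sets with 1 symbol (15716), the brighter probe set of Psmd11 showed a log2 fold change of 1.35 after 6 sessions (adjusted p = 0.00909) and the next at 0.02 (adjusted p = 0.949). The rise of Psmd11 thus rests on 1 of the 2 probe sets past the filter. Psmd7 showed the opposite order, -0.05 for the brighter and 0.80 for the next (adjusted p = 0.0311). Psme4 had 0.13 for the brightest and -1.51 and -1.41 for the others (adjusted p = 0.00972 and 0.0121), so its 2 dimmer probe sets fell. The log2 fold changes of the 3 probe sets of Psmd14 were -0.45, -0.77 and -0.62, and those of Psmc6 0.35, 0.63 and 0.04, none past the threshold. Which probe set follows the full transcript was not tested. Psma6, Psma7, Psmb4, Psmc2, Psmc3, Psmd1, Psmd4, Psmd12, Psmd5 and Psmg3 have a single probe set.

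**Figure D5:**
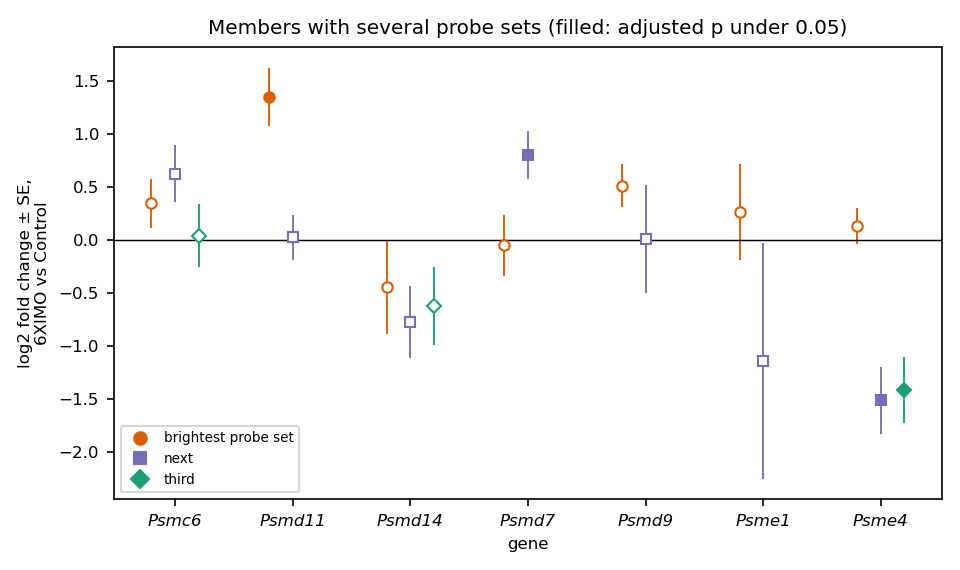
Log2 fold change with its standard error, 6XIMO against Control, of each probe set past the filter for the 7 genes with several, in order of brightness, with filled symbols past an adjusted p of 0.05. The probe sets of Psmd11 differ (1.35 and 0.02), as do those of Psmd7 (-0.05 and 0.80) and Psme4 (0.13, -1.51 and -1.41).

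The start of 42 of the 46 genes was found in a table of RefSeq promoter windows (250 bases before to 50 after the start, build GRCr8, 33469 windows). Matches were counted on both strands, and a match describes letters, not a bound site. The core of the antioxidant response element, TGACNNNGC, to which Nfe2l1 and Nfe2l2 can bind, was in 7 of the 42 windows (16.7%) and in 12.1% of all windows. The CCAAT box was in 22 (52.4%, against 37.5%), the STAT motif TTCNNNGAA in 4 (9.52%, against 8.87%), the interferon-stimulated element in 7 (16.7%, against 3.92%) and the heat shock element in 0 (against 0.798%). TTCNNNGAA can share bases with the heat shock element. The ETS core CCGGAAG, searched after the windows had been read, was in 15 (35.7%, against 8.75%). It lies in the windows of Psma6, Psmb4, Psmc2, Psmd4, Psmd11 and Psmg3, among others, so genes that rose and 1 that fell hold it.

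The stretches below are from the promoters of genes that changed after 6 sessions, and are shown because these genes carry the result and hold a match near the start. Capitals mark a match to CCGGAAG in Psma6, Psmb4, Psmc2 and Psmd11, to CCAAT in Psmc3, Psmd4 and Psmg3 and to TGACNNNGC in Psmd1, in either strand, so that CTTCCGG and ATTGG are the same motifs read from the other side. Each is read 5′ to 3′ on the strand of the gene and spans 60 bases, which end at the base before the start except in Psmd1 (191 to 132 bases before) and Psmg3 (178 to 119 before). Psmd5 holds none of the 6 motifs and is shown for contrast. Psmd12 and Psma7 had no entry in the table.
Psma6 chr6:78514287-78514346, plus strand: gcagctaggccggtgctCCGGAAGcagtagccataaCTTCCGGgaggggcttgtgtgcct
Psmb4 chr2:185134562-185134621, minus strand: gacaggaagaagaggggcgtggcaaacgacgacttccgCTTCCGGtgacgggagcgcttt
Psmc2 chr4:14162391-14162450, minus strand: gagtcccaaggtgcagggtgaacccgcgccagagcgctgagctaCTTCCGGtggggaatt
Psmd11 chr10:65932283-65932342, plus strand: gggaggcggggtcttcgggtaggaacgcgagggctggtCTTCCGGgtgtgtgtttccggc
Psmc3 chr3:97487583-97487642, plus strand: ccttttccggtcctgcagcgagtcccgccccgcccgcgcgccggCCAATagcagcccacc
Psmd4 chr2:185297202-185297261, minus strand: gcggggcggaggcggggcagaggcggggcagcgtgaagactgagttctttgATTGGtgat
Psmd1 chr9:94157780-94157839, plus strand: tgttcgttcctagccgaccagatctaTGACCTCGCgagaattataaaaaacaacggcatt
Psmg3 chr12:19923110-19923169, plus strand: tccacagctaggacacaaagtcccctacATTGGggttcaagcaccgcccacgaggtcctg
Psmd5 chr3:38548491-38548550, minus strand: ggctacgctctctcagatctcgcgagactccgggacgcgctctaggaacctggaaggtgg

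Of 17 listed partners of the proteasome that do not carry its name, 15 were tested. After 1 session 3 fell and 0 rose, and after 6 sessions 2 rose and 3 fell, with medians of -0.03 and 0.01. Over all genes 5.31% fell after 1 session, and 9.36% rose and 14.9% fell after 6, with medians of -0.13 and -0.23. Members of this and the next lists were listed with earlier results of these data known. Nfe2l1, the transcription factor of the proteasome genes, had log2 levels of 13.42, 13.34 and 13.63 in Control, 12.58, 13.21 and 12.98 in 1XIMO and 11.94, 12.29 and 12.21 in 6XIMO. It was below Control in all stressed arrays and lowest in 6XIMO, at -0.54 ± 0.21 (SE, adjusted p = 0.152) after 1 session, which did not pass, and -1.32 ± 0.21 (SE, adjusted p = 0.00265) after 6, which did. A further probe set of Nfe2l1 fell by 1.79 on the log2 scale (adjusted p = 0.013) and the third had a difference of -0.31 after 6 sessions. Nfe2l2, a related factor of the oxidative stress response, had log2 levels of 14.00, 13.52 and 13.86 in Control, 13.82, 13.54 and 13.71 in 1XIMO and 11.66, 14.09 and 14.02 in 6XIMO, with only 6XIMO replicate 1 apart (-0.53 ± 0.55 SE, adjusted p = 0.514).

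The partners that fell after 6 sessions were 3 of 15, not far from the 14.9% of all genes, so they are not read as a joint fall. Besides Nfe2l1 they are Ddi2 and Ngly1, enzymes that prepare Nfe2l1. Ddi2, the protease that cuts it free, had log2 levels of 12.08, 12.05 and 12.30 in Control, 11.05, 10.83 and 11.18 in 1XIMO and 11.11, 10.48 and 10.69 in 6XIMO, which gives -1.13 ± 0.22 (SE, adjusted p = 0.013) and -1.38 ± 0.22 (SE, adjusted p = 0.00269). Ngly1, which removes its sugar chains, had log2 levels of 13.19, 13.23 and 13.23 in Control, 12.08, 12.00 and 12.20 in 1XIMO and 11.76, 12.44 and 12.69 in 6XIMO, which gives -1.12 ± 0.24 (SE, adjusted p = 0.0165) and -0.92 ± 0.24 (SE, adjusted p = 0.0196). No stressed array of either gene reached the Control range. Both passed in both comparisons under quantile normalization, with and without 6XIMO replicate 1, with values of -1.01 and -1.05 for Ddi2 and -1.14 and -1.16 for Ngly1 after 1 session, and -1.21, -1.22, -0.91 and -0.68 after 6. With median centring neither gene passed, nor did Nfe2l1, at -0.996 and -1.21 for Ddi2, -0.99 and -0.75 for Ngly1 and -1.15 for Nfe2l1 after 6 sessions. No single array ended the calls of Nfe2l1 and Ddi2 after 6 sessions. The call of Ddi2 after 1 session was lost without Control replicate 2 or 3 or 1XIMO replicate 2 (-1.17 to -1.03), that of Ngly1 after 1 session without any 1 of the Control and 1XIMO arrays (-1.18 to -1.08) and after 6 without any 1 of the Control arrays (-0.94 to -0.91).

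Uchl5, a deubiquitinase of the cap, had log2 levels of 12.14, 12.17 and 12.55 in Control, 11.19, 11.51 and 11.57 in 1XIMO and 11.60, 12.17 and 12.29 in 6XIMO. It fell after 1 session (-0.86 ± 0.23 SE, adjusted p = 0.048, a call lost without any 1 array other than 6XIMO replicate 1) and showed a log2 fold change of -0.27 ± 0.23 (SE, adjusted p = 0.445) after 6. Its receptor on the cap, Adrm1, had log2 levels of 12.59, 11.96 and 12.31 in Control, 12.22, 12.29 and 12.19 in 1XIMO and 13.21, 12.02 and 11.97 in 6XIMO, and Usp14, the other reversible deubiquitinase, log2 levels of 13.58, 13.47 and 13.42 in Control, 13.44, 13.47 and 13.44 in 1XIMO and 12.17, 13.95 and 14.01 in 6XIMO. Neither passed in either comparison, and without 6XIMO replicate 1 Usp14 rose after 6 sessions (0.49, adjusted p = 0.00625). Under quantile normalization Usp14 did not pass, at -0.24 (adjusted p = 0.626), or at 0.22 (adjusted p = 0.165) with that array left out in addition. Pomp, the chaperone that completes the core, had log2 levels of 14.79, 14.72 and 14.89 in Control, 14.93, 14.81 and 14.58 in 1XIMO and 14.84, 15.29 and 15.49 in 6XIMO. After 6 sessions it did not pass as deposited (0.41 ± 0.23 SE, adjusted p = 0.232) and passed without 6XIMO replicate 1 (0.59, adjusted p = 0.00799). Under quantile normalization the sign was the other one, at -0.17 (adjusted p = 0.3), and at -0.15 (adjusted p = 0.264) with that array left out in addition. In that last setting Pomp fell after 1 session (-0.26, adjusted p = 0.0495).

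Both partners that rose after 6 sessions bind the finished particle. Ecpas, which clamps cap to core, had log2 levels of 13.09, 12.90 and 12.87 in Control, 13.61, 13.32 and 13.27 in 1XIMO and 14.93, 14.19 and 14.30 in 6XIMO (1.52 ± 0.23 SE, adjusted p = 0.00206). Txnl1, a thioredoxin of the cap, had log2 levels of 14.21, 13.97 and 14.14 in Control, 14.63, 14.43 and 14.38 in 1XIMO and 15.68, 15.21 and 15.49 in 6XIMO (1.35 ± 0.21 SE, adjusted p = 0.00226). For both, 6XIMO lay above all other arrays and 1XIMO above all Control arrays, and both passed under quantile normalization with and without 6XIMO replicate 1. Another 4 probe sets of Ecpas past the filter had log2 fold changes from -0.86 to 0.76 and none passed, the mean of all its probe sets did not pass, and a further one of Txnl1 had one of 0.81 (adjusted p = 0.109).

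Of 16 genes of ubiquitin, its activating enzyme and delivery to the proteasome, 10 were tested. After 1 session 0 changed (median -0.09). The 3 lowest adjusted p-values were those of Ubqln2, Ubqln4 and Nsfl1c. Ubqln2 had log2 levels of 13.88, 14.08 and 13.81 in Control, 13.60, 13.63 and 13.72 in 1XIMO and 13.99, 14.24 and 14.17 in 6XIMO (-0.27 ± 0.18 SE, adjusted p = 0.441 after 1 session). Ubqln4 had log2 levels of 12.48, 12.25 and 12.54 in Control, 12.22, 12.13 and 12.27 in 1XIMO and 12.44, 12.12 and 12.29 in 6XIMO (-0.22 ± 0.17 SE, adjusted p = 0.573), and Nsfl1c, a cofactor of Vcp, log2 levels of 12.92, 12.99 and 13.23 in Control, 12.54, 12.98 and 12.77 in 1XIMO and 12.65, 13.44 and 13.20 in 6XIMO (-0.29 ± 0.23 SE, adjusted p = 0.596). None of these passed. After 6 sessions 1 rose and 0 fell (median -0.23, beside -0.23 over all genes). Vcp, the ATPase that extracts ubiquitin-tagged proteins, had log2 levels of 14.58, 14.31 and 14.48 in Control, 14.76, 14.44 and 14.20 in 1XIMO and 15.81, 15.50 and 15.56 in 6XIMO. All 6XIMO arrays lay above the others (1.17 ± 0.22 SE, adjusted p = 0.00585), but it did not pass under quantile normalization with or without 6XIMO replicate 1 (0.55 and 0.36). Its cofactor Nploc4 had log2 levels of 12.74, 12.75 and 13.04 in Control, 13.18, 13.12 and 13.16 in 1XIMO and 10.16, 12.62 and 12.61 in 6XIMO (-1.04 ± 0.55 SE, adjusted p = 0.195). Uba1, the activating enzyme, had log2 levels of 14.47, 14.57 and 14.56 in Control, 14.35, 14.31 and 14.24 in 1XIMO and 12.98, 14.50 and 14.35 in 6XIMO (-0.59 ± 0.35 SE, adjusted p = 0.252). In both, 6XIMO replicate 1 was the lowest array.

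Of 8 interferon and antigen-processing partners of the immunoproteasome, 7 were tested. After 1 session 1 fell and 0 rose (median -0.07), and after 6 sessions 2 fell and 1 rose (median -0.42). The shares over all genes were 5.31% falling after 1 session and 14.9% falling and 9.36% rising after 6, with a median of -0.23 after 6. Irf1, the transcription factor that switches on Psmb9 and Tap1, had log2 levels of 13.53, 13.67 and 13.60 in Control, 12.14, 12.15 and 12.33 in 1XIMO and 10.63, 12.08 and 12.18 in 6XIMO. It was below Control in all stressed arrays, at -1.40 ± 0.36 (SE, adjusted p = 0.037) and -1.97 ± 0.36 (SE, adjusted p = 0.00469). The first did not pass under quantile normalization, where the fold change was -1.48 (adjusted p = 0.161), and passed at -1.49 (adjusted p = 1.08e-05) when 6XIMO replicate 1 was left out as well. It also did not pass without any 1 of the Control and 1XIMO arrays (-1.46 to -1.36), and no single array ended the second call. Tap1, the peptide transporter, had log2 levels of 11.62, 11.71 and 11.57 in Control, 11.04, 11.11 and 11.01 in 1XIMO and 10.71, 11.09 and 11.00 in 6XIMO. It fell after 6 sessions (-0.70 ± 0.19 SE, adjusted p = 0.0241) and did not pass after 1 (-0.58 ± 0.19 SE, adjusted p = 0.0897), although its 1XIMO arrays also lay below all Control arrays. The call was lost under quantile normalization at a fold change of -0.68 (adjusted p = 0.191), under quantile normalization without 6XIMO replicate 1 (-0.25 (adjusted p = 0.203)), and without any 1 of the Control arrays (-0.73 to -0.66). Tap2, its partner, had log2 levels of 11.33, 10.37 and 11.39 in Control, 11.21, 10.53 and 9.85 in 1XIMO and 10.57, 10.48 and 10.78 in 6XIMO and did not pass (-0.50 ± 0.38 SE, adjusted p = 0.553 and -0.42 ± 0.38 SE, adjusted p = 0.461). Erap1, which trims peptides for display, had log2 levels of 13.99, 13.97 and 14.15 in Control, 13.79, 14.36 and 14.42 in 1XIMO and 15.56, 14.96 and 14.92 in 6XIMO and rose (1.11 ± 0.25 SE, adjusted p = 0.0124), a call lost under quantile normalization (0.63, adjusted p = 0.124) and without Control replicate 2 (adjusted p = 0.0524).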

How the data were processed

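Total RNA of rat adrenal medulla was hybridised to 9 one-colour Affymetrix arrays, 3 per group. The authors deposited 1 intensity per probe set and array, scaled so that the trimmed mean is about 2501 on every array. The probe-level summary, the scaling method and the software were not given in the sources used here. Gene symbols came from GEO's platform annotation, which gives 1 symbol for 20826 of 31099 probe sets, several for 436 and none for 9780, with 57 control probe sets besides. Levels were taken as log2(intensity + 16), the dimmest 30% of probe sets (mean level under 8.51) were left out, and the brightest probe set with 1 symbol stood for a gene. All 9 arrays entered 1 fit in limma 3.58.1 (R 4.3.3; lmFit, then eBayes with a trend), without covariates, with Benjamini-Hochberg adjustment over the 11287 genes, and the fit was tested on simulated data first. Alternatives were quantile normalization, median centring, the filter, the pseudocount, the mean of probe sets, array weights, a replicate block, single arrays left out (6XIMO replicate 1 also together with quantile normalization) and other thresholds. Same-numbered Control and 1XIMO arrays deviated together (r = 0.51, 0.36 and 0.25), while pairs with 6XIMO had r from 0.06 to 0.16. The main fit used no pairing. The replicate block took the labels' numbers over all 9 arrays, so the 6XIMO arrays were blocked by number as well. Tests of single probe sets, counts without Psmc3ip and Psme3ip1, and the alternatives for pathway genes were added after seeing the data. Values in every array are given for the 2 genes of each role group with the lowest adjusted p in each comparison with Control, the catalytic subunits, the extremes, and the 3 lowest of each pathway list beside Pomp, Nfe2l1, Nfe2l2, Usp14 and Adrm1; Psmd1 and Psmd12 were added because they passed. The genes and lists were chosen with earlier results of these data known. 0 columns of other series were present.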

Additional observations from a re-analysis of the deposited data

Results flagged for a closer look

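For 8 genes the response to 6 sessions differed from that to 1 session, by limma's test of 6XIMO against 1XIMO, which is the difference between both responses. As 6XIMO minus 1XIMO on the log2 scale the values were 1.12 for Psma6 (adjusted p = 0.015), 0.69 for Psma7 (adjusted p = 0.0431) and 1.08 for Psmb4 (adjusted p = 0.0247) of the core. They were 0.88 for Psmb10 (adjusted p = 0.0321), the immune catalytic subunit. In the cap they were 1.00 for Psmc2 (adjusted p = 0.0166), 0.65 for Psmc3 (adjusted p = 0.0367), 1.15 for Psmd11 (adjusted p = 0.0316) and 0.91 for Psmd4 (adjusted p = 0.0185). Each call was lost without any 1 of several arrays: 2 for Psma6, Psmc2 and Psmd4, 6 for Psmb4, 7 for Psmb10 and Psmd11, and 8 for Psma7 and Psmc3. With median centring, or with only these groups in the fit, 0 of the 8 passed. Under quantile normalization 4 of the 8 passed, Psma6, Psmc2, Psmc3 and Psmd4. With 6XIMO replicate 1 left out as well 7 did, all but Psmb4. Each was higher in 3 of 3 arrays of 6XIMO than in all arrays of 1XIMO, which adds no support, since the calls rest on the same values. Genes that did not pass, such as Psma4, Psmb8 and Psmc1, were separated in the same way. The share of all genes separated like this was not counted. The RNA quality of the 6XIMO arrays cannot be told apart from the schedule.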

How the results depend on the processing

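Counts of the 46 genes past an adjusted p of 0.05 were recomputed under each alternative. The share of all genes called moved too: with array weights 36.8% fell and 21.2% rose in 6XIMO against Control and 22.3% were higher in 6XIMO than in 1XIMO, and fits of only 2 groups called 0 genes higher in the latter. In 1XIMO against Control, where 2 genes fell, the count was 0 with median centring, 12 under quantile normalization without 6XIMO replicate 1, 10 with array weights, 5 when only the 2 groups compared were fitted, 1 at an adjusted p under 0.01, and 1 to 8 with each array left out in turn. Over all genes 26.4% fell with array weights, 19.1% when only these 2 groups were fitted and 1.2% at an adjusted p under 0.01. In 6XIMO against Control, where 9 rose and 2 fell, it was 5 and 1 under quantile normalization, 1 and 0 with median centring, 10 and 7 under quantile normalization without 6XIMO replicate 1, 23 and 4 with array weights, 4 and 2 when only the 2 groups were fitted, 4 and 2 at an adjusted p under 0.01, and 4 to 19 rising with each array left out. Over all genes 5.93% rose and 7.51% fell when only these 2 groups were fitted, and 4.47% and 5.74% at an adjusted p under 0.01. In 6XIMO against 1XIMO, where 8 were higher, it was 4 under quantile normalization, 0 with median centring, 31 with array weights, 0 when only the 2 groups were fitted, 0 at an adjusted p under 0.01, and 0 to 22 with each array left out. At an adjusted p under 0.01, 0.23% of all genes were higher. The other settings (no filter, the dimmest 50% left out, a pseudocount of 1 or 64, the mean of all probe sets, an adjusted p under 0.1) stayed within 1.5 times. With the replicate number as a block the counts were 2 down after 1 session, 9 up and 2 down after 6, and 6 up between the schedules. This block, which also ties the 6XIMO arrays to the others by number, changed no call against Control. It ended those of Psma7 (adjusted p = 0.0595) and Psmc3 (0.0502) between the schedules. The cause of these moves was not tested. Among values past the threshold in either setting, signs changed in these cases against Control after 6 sessions: Psmb1 ran from -0.23 to 0.42 with each array left out (0.42 without 6XIMO replicate 1) and was 0.40 with array weights, Usp14 ran from -0.43 to 0.49 (0.49 without that array) and was 0.51, Psmb8 -0.46 and Psmd2 -0.28 under quantile normalization without that array, and Psme4 -0.93 as the mean of its probe sets. Between the schedules Psma2 ran from -0.43 to 0.69 (0.69 without 6XIMO replicate 1) and was 0.70 with array weights, Psmd14 ran from -0.61 to 0.37 (0.37 without that array), and Psma5 0.38, Psmb3 0.37 and Psmd6 0.35 with array weights. Psmb9 minus Psmb6 was not computed, since Psmb6 is only on a probe set with several symbols. The number of arrays limits the precision.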
